A study of Mus musculus with 2 samples.

Results

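Aldehyde dehydrogenases oxidise aldehydes to carboxylic acids with NAD+ or NADP+ as the electron acceptor. Within the ALDH1A class, ALDH1A1, ALDH1A2 and ALDH1A3 act on retinal and so make retinoic acid, the ligand of nuclear receptors that guide myeloid differentiation. Others, such as the mitochondrial ALDH2, clear acetaldehyde and lipid-derived aldehydes that damage DNA and protein, and high aldehyde dehydrogenase activity is widely used to enrich blood stem and progenitor cells. The 10 genes described here are Aldh1a1, Aldh1a2, Aldh1a3, Aldh1a7, Aldh1b1, Aldh2, Aldh3a2, Aldh3b1, Aldh7a1 and Aldh9a1, out of 55487 gene IDs in the count table. They were found by the Ensembl ID of their GRCm38 symbol, and the set was chosen by the large read-count differences of Aldh1a1 and Aldh1a7 between the cultures. Those differences are therefore a description, and nothing was tested on them.

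The study compared 2 cultures of C57BL/6 mouse marrow cells depleted of mature lineages, each transduced with a pMYs-IG retroviral vector that also confers green fluorescence. The EVI1-WT culture carried 3xHA-EVI1-WT, the tagged wild-type form of EVI1, a zinc finger transcription factor overexpressed in some myeloid leukaemias, and the EVI1+18 culture carried 3xHA-EVI1+18, a splice form. Fluorescent cells were plated at 10000 per culture and grown for about 3 weeks in MethoCult M3434, a colony medium for myeloid and erythroid cells, so both cultures shared retroviral overexpression, sorting and medium. An empty-vector culture was not analysed here. Each form was represented by 1 library, pooled from whatever cells the colonies held, and no value below has a replicate check. The libraries held 20480447 and 20981903 counts. The intervals below are 95% exact counting intervals, which cover counting error and not the variation between cultures. Mecom, the gene that encodes EVI1, had 3612 counts in EVI1-WT against 4481 in EVI1+18, and the labels do not say whether the vectors carry the human or the mouse sequence. These counts may therefore come from the vector, the endogenous gene or both, and they check neither label.

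Aldh1a1 and Aldh1a7 are paralogues that lie near each other on chromosome 19 (GRCm38). Aldh1a1 (ENSMUSG00000053279) spans 20492715 to 20643465 on the plus strand. Aldh1a7 (ENSMUSG00000024747), a rodent gene of the ALDH1A class, spans 20692953 to 20727562 on the minus strand, 49.5 kb away. Whether its product acts on retinal was not tested. Their coding sequences were 92.1% identical over 1503 bases, stop codon left out, whereas the other 44 pairs among the 10 genes lay between 56.4% and 73.0%. RefSeq lists 2 starts for Aldh1a1, and the second was picked because the sequence before it resembles the Aldh1a7 promoter. The window before the first was 63.2% identical to that of Aldh1a7 and held none of the motifs described below. Counts per gene do not show which start was used. In the sequences and motif positions below, Aldh1a1 means the window before its second start. The 250 bases before the second Aldh1a1 start and before the Aldh1a7 start are printed because the genes were high in the same library. Those of Aldh1a2 are printed because the same motifs stand before a gene that stayed low. The sequences are RefSeq's on GRCm38.p6, 5′ to 3′ on the strand of the gene, at chr19:20601718-20601967 (plus) for Aldh1a1, chr19:20727557-20727806 (minus) for Aldh1a7 and chr9:71215539-71215788 (plus) for Aldh1a2. Capitals mark CCAAT, the octamer ATGCAAAT and the GATA motif AGATAA.
Aldh1a1: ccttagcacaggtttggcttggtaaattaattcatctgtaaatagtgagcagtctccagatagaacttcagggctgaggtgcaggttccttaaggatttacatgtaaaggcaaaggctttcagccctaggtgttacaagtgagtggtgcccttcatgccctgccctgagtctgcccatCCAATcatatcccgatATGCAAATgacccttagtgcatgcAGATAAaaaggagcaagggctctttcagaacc
Aldh1a7: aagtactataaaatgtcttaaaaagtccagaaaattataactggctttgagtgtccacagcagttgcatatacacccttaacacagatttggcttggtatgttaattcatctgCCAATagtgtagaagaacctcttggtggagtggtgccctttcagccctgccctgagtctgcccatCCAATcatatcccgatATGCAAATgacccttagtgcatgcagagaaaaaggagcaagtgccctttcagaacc
Aldh1a2: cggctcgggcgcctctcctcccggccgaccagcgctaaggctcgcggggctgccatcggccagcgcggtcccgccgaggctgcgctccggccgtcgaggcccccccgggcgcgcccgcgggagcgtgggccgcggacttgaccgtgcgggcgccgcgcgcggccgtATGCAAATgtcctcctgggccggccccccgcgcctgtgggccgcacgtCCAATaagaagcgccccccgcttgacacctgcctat

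The resemblance was concentrated next to the start. In the 100 bases before it, Aldh1a1 and Aldh1a7 were identical at 94 without a gap, and in the 25-base window from -75 to -51 at all 25. Over the whole 250 bases, aligned with gaps, they shared 74% of positions. The other 27 pairs among the 8 promoter windows compared here shared 50.4% to 63.2%. Those windows cover 7 of the 10 genes, without Aldh1a3, Aldh2 and Aldh7a1. Aldh1a1 and Aldh1a7 each had CCAAT from -72 to -68 and the octamer from -56 to -49, and Aldh1a7 had another CCAAT from -137 to -133. Of all 32851 mouse promoter windows of that length, 33.9% held CCAAT on either strand, 1.60% the octamer and 0.767% both. Both also stood in the Aldh1a2 window, with the octamer from -84 to -77 and CCAAT from -36 to -32. AGATAA, found in 9.99% of windows, stood from -32 to -27 in Aldh1a1. Members with ratios of less than 2-fold held these motifs too, with AGATAA on the opposite strand from -150 to -145 in Aldh9a1, and CCAAT from -13 to -9 in Aldh3a2 and on the opposite strand from -54 to -50 in Aldh9a1. At the place of the Aldh1a1 AGATAA, Aldh1a7 differed by the substitution T29G, counted upstream from the start with the Aldh1a1 base first. The Aldh1a7 window had no AGATAA on either strand. Of the other motifs searched on both strands, TATAAA (12.4% of windows) was found before Aldh1a7, from -244 to -239. AGGTCA (14.0%), the nuclear receptor half-site, stood before Aldh3b1 from -39 to -34 and on the opposite strand from -164 to -159. These motifs were chosen after the sequences had been seen, and a match is letters only, not evidence of binding.

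**Figure D1:**
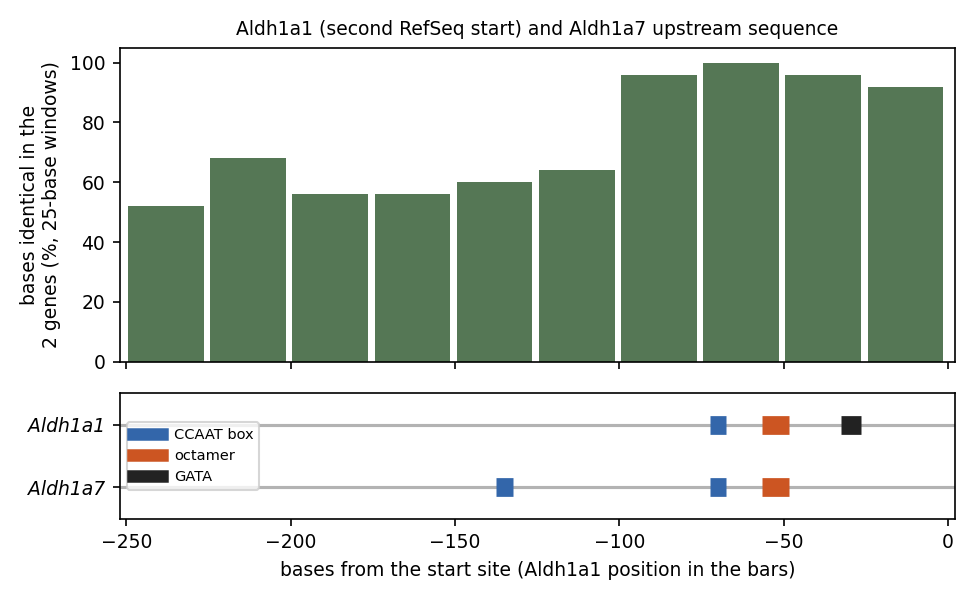
Upper panel: percent of bases identical between the aligned Aldh1a1 (second RefSeq start) and Aldh1a7 upstream sequences, in 25-base windows by distance from the start site. Lower panel: matches of the CCAAT, octamer and GATA motifs in each. The 4 windows nearest the start are 92% to 100% identical, and the windows farther away 52% to 68%.

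Of the 10 genes, Aldh1a1 and Aldh1a7 were much higher in EVI1+18, 6 had ratios of less than 2-fold, and Aldh1a2 and Aldh1a3 were barely detected in either library. Levels are given as CPM, the share of a library's reads, scaled between the libraries by TMM (scaled CPM). Calls were made for the 13183 genes that reached 1 scaled CPM in either library, and required the whole interval of the ratio to exceed 2 or to stay under 0.5. Of all these genes, 5.05% were called higher and 5.10% lower in EVI1+18. The counts of called genes in each list below stand beside these shares. Some called genes of those lists reached 1 scaled CPM only in the library where they were higher. Among the pathway genes, Rbp4, Cd38, Adh7, Akr1b8, Cbr3, Gsta1 and Gsta3 did so through EVI1+18, and Maob through EVI1-WT. Some cell type markers did so too. Of the 8 aldehyde dehydrogenase genes that reached 1 scaled CPM, 2 were called higher and 0 lower, but those 2 are the genes that chose the set and Aldh1a7 reached the minimum only through EVI1+18, so nothing is read from that share.

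Aldh1a1, the cytosolic retinal dehydrogenase, had 22 counts in EVI1-WT against 3500 in EVI1+18. These are 1.10 scaled CPM (0.688 to 1.66) and 163 scaled CPM (158 to 169), so the gene lay near the minimum of 1 in EVI1-WT alone. The ratio was 148-fold (97.9 to 237), the 5th highest log2 ratio of the 13183 genes. Aldh1a7 had 3 counts in EVI1-WT, which is no more than a count of 0 allows, and 448 in EVI1+18. Its levels were 0.150 scaled CPM (0.0309 to 0.438) and 20.9 (19 to 22.9), a 139-fold ratio (47.4 to 678) that ranked 11th.

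The share of Aldh1a7 within the pair was known closely in EVI1+18 only, since it rests on 3 counts in EVI1-WT. Aldh1a7 made up 12% of the pair's counts in EVI1-WT (2.55% to 31.2%, exact Clopper-Pearson, 25 counts) and 11.3% in EVI1+18 (10.4% to 12.4%, 3948 counts). Of the 50-base words in the Aldh1a7 transcripts, 7.49% also occur in Aldh1a1, and 3.06% of those of Aldh1a1 occur in Aldh1a7. How reads that fit both were counted is not given in the sources used here, so the Aldh1a7 level is the less certain of the pair, and whether a part of its counts came from Aldh1a1 was not tested. Summed as a pair, they had 1.25 and 184 scaled CPM, a 147-fold ratio (99.7 to 228), and this sum too depends on whether such reads were assigned once, discarded or counted for both.

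The other ALDH1A genes, Aldh1a2 (ENSMUSG00000013584, chromosome 9, 71215789 to 71296243) and Aldh1a3 (ENSMUSG00000015134, chromosome 7, 66390890 to 66427517), make retinoic acid in embryonic and epithelial tissues. Aldh1a2 had 14 counts in EVI1-WT against 7 in EVI1+18, or 0.699 and 0.326 scaled CPM, and Aldh1a3 had 9 and 5 counts, or 0.449 and 0.233. Both were nominally lower in EVI1+18, at ratios of 0.467 (0.159 to 1.24) and 0.519 (0.137 to 1.72), and at this depth no difference was detectable.

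Aldh2, the mitochondrial enzyme that oxidises acetaldehyde and formaldehyde, was the most abundant of the 10 in both libraries. It is encoded on chromosome 5 (ENSMUSG00000029455, 121566027 to 121593824) and had 11075 counts in EVI1-WT against 16203 in EVI1+18, or 553 and 755 scaled CPM. It was 1.37-fold higher in EVI1+18 (1.33 to 1.40), beyond counting error and short of 2-fold. Aldh1b1 (ENSMUSG00000035561, chromosome 4, 45799022 to 45804604), a mitochondrial enzyme closest to Aldh2 in coding sequence at 73.0%, had 28 and 51 counts, or 1.40 and 2.38 scaled CPM. Its ratio was 1.70 (1.05 to 2.80), so at this depth a difference above 2-fold and one near equality both remained within counting error.

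Enzymes with other substrates differed by less than 2-fold. Aldh9a1 (ENSMUSG00000026687, chromosome 1, 167349991 to 167368532), which oxidises an intermediate of carnitine synthesis, had 1949 counts in EVI1-WT against 2586 in EVI1+18, and was 1.24-fold higher (1.17 to 1.31). Aldh7a1 (ENSMUSG00000053644, chromosome 18, 56509687 to 56572951), an enzyme of lysine breakdown, had 207 and 368 counts and was 1.66-fold higher (1.40 to 1.98). Exons of Phax on the opposite strand overlap 5.79% of its exon length, and Phax had 703 and 740 counts, and without a known strand setting reads from the overlap cannot be told apart. Aldh3b1 (ENSMUSG00000024885, chromosome 19, 3913491 to 3929808), which acts on lipid-derived aldehydes, had 179 and 313 counts and was 1.63-fold higher (1.35 to 1.97). It lies on the same chromosome as Aldh1a1 but far from it. Of its 50-base words, 8.97% occur in other genes, chiefly Aldh3b3 and Aldh3b2, which were both at 0 counts in both libraries. Aldh3a2 (ENSMUSG00000010025, chromosome 11, 61223417 to 61267464), the fatty aldehyde dehydrogenase, was the only 1 of the 8 measurable genes with a lower level in EVI1+18. It had 738 and 676 counts, or 36.8 and 31.5 scaled CPM, a 1.17-fold decrease (1.05 to 1.30).

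**Figure D2:**
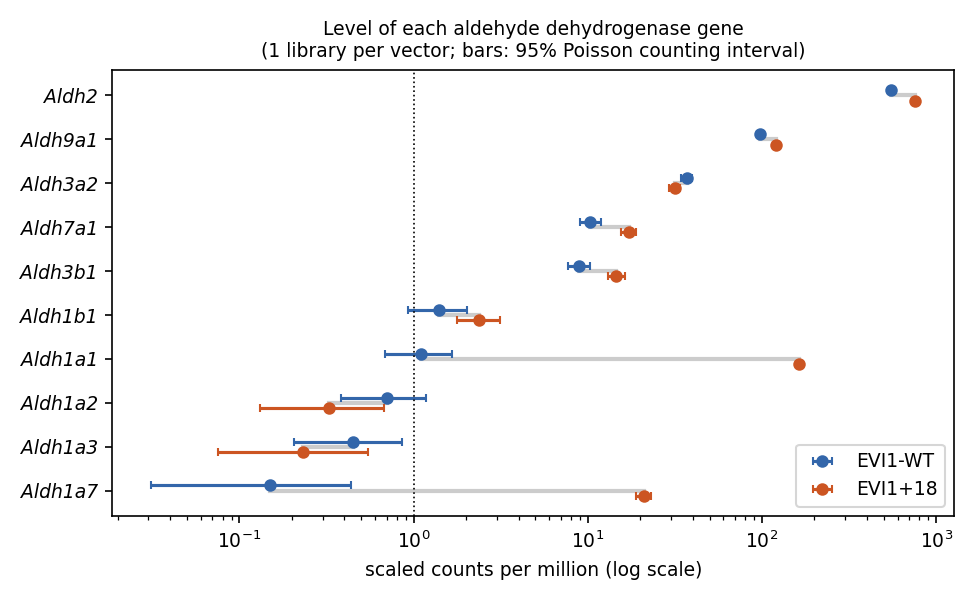
Scaled CPM (log axis) of each gene in EVI1-WT (blue) and EVI1+18 (orange), 1 library each, with 95% exact Poisson counting intervals and a dotted line at 1 scaled CPM. Aldh1a1 and Aldh1a7 are separated by about 2 orders of magnitude, while the points of the other genes lie close together.

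Per length of gene, the order of the 10 genes changed between the cultures mainly through Aldh1a1 and Aldh1a7. Levels per kilobase of the union of all exons (scaled RPKM) summed to 151 in EVI1-WT and 243 in EVI1+18. In EVI1-WT, Aldh2 held 71.5% of that sum at 108 scaled RPKM, Aldh9a1 19.1% at 28.8, Aldh3a2 4.35% at 6.56 and Aldh3b1 2.90% at 4.37, and Aldh1a1 held 0.147% at 0.223. In EVI1+18, Aldh2 held 60.5% at 147 scaled RPKM, Aldh9a1 14.6% at 35.6, Aldh1a1 13.6% at 33.0 and Aldh1a7 4.15% at 10.1. Aldh1a1 thereby moved from rank 8 to rank 3, and Aldh1a7 from rank 10 to rank 4. In EVI1-WT the lower ranks were not separated beyond counting error. Aldh1b1 at 0.608 scaled RPKM (0.404 to 0.879) overlapped Aldh1a2 at 0.309 (0.169 to 0.518), which overlapped Aldh1a1 (0.139 to 0.337), and the intervals of Aldh1a3 and Aldh1a7 overlapped too. In EVI1+18 the only neighbours with overlapping intervals were Aldh1a2 at 0.144 (0.0579 to 0.297) and Aldh1a3 at 0.0505 (0.0164 to 0.118), and Aldh9a1 (34.3 to 37) lay just above Aldh1a1 (32 to 34.2). The order near Aldh1a1 depends on the length used, since its longest transcript has 2358 bases and its union of exons 4937. By the longest transcript, Aldh1a1 was at 69.2 scaled RPKM in EVI1+18, or 20.3% of the sum, above Aldh9a1 at 42.5.

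**Figure D3:**
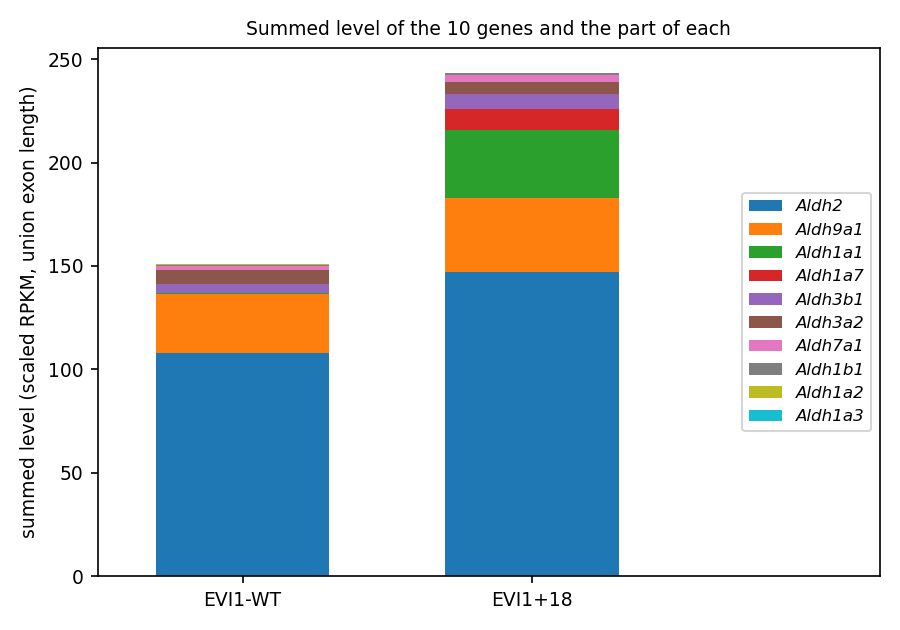
Summed level of the 10 genes in each library (scaled RPKM by union exon length), with the part of each gene as a coloured segment. The EVI1+18 bar reaches 243 and the EVI1-WT bar 151, and the Aldh1a1 segment is visible in EVI1+18 alone.

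The rest of the sum also differed. Without Aldh1a1 and Aldh1a7, the 8 other genes had 709 scaled CPM in EVI1-WT against 942 in EVI1+18, a 1.33-fold ratio (1.30 to 1.36), and most of these counts are from Aldh2. The increase per length was 39.4 scaled RPKM for Aldh2 and 32.8 for Aldh1a1, so by this length the abundant gene with a small ratio added more than the gene with a 148-fold ratio. By the longest transcript the order turned, with 52.3 for Aldh2 and 68.7 for Aldh1a1.

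Among the 11 other genes of the aldehyde dehydrogenase superfamily, 7 reached 1 scaled CPM, 1 was called higher and 0 lower, and the median log2 ratio was 0.61. The same median over all 13183 genes was 0.01, and over the 8 measurable genes of the set 0.71, which includes the genes that chose it. Aldh1l2, the mitochondrial enzyme that oxidises 10-formyltetrahydrofolate, had 26 counts in EVI1-WT against 347 in EVI1+18, a 12.5-fold ratio (8.36 to 19.3). D10Wsu102e overlaps 14.1% of its exon length on the opposite strand and had 1730 and 1570 counts. Its cytosolic counterpart Aldh1l1 had 15 and 54 counts and was 3.36-fold higher (1.87 to 6.41), and Aldh3a1, known from the cornea, was 2.47-fold higher (1.90 to 3.23), neither with its whole interval past 2-fold. Aldh18a1, which makes the proline precursor pyrroline-5-carboxylate, was the most abundant of these at 37.2 and 56.7 scaled RPKM, a 1.52-fold ratio (1.46 to 1.60). Aldh4a1, which oxidises that compound in proline breakdown, was 1.40-fold lower (1.24 to 1.58). Gm21969, which had 0 counts, holds 30.0% of its 50-base words. Aldh16a1 was 1.27-fold higher (1.17 to 1.39), and Aldh6a1, of valine breakdown, 1.08-fold higher with bounds on either side of equality (0.872 to 1.34). Aldh5a1 had 6 and 8 counts, Aldh8a1 0 and 1, and Aldh3b2 and Aldh3b3 0 in both libraries.

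**Figure D4:**
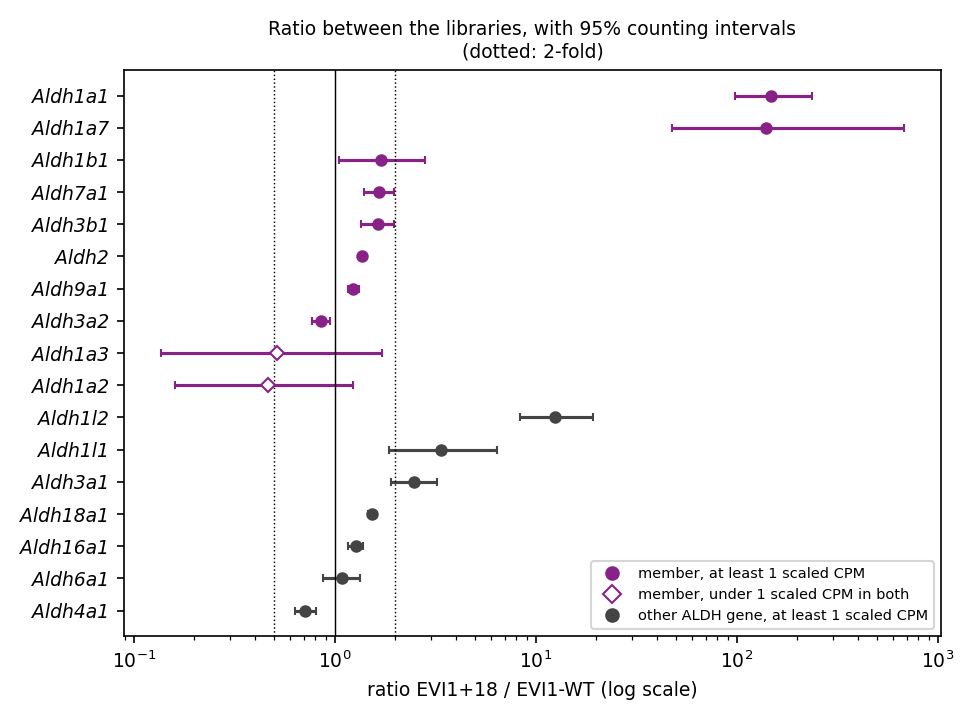
Ratio of EVI1+18 over EVI1-WT (log axis) with 95% exact counting intervals for the 10 genes (purple, open where under 1 scaled CPM in both libraries) and for the 7 other measurable aldehyde dehydrogenase genes (grey). Aldh1a1, Aldh1a7 and Aldh1l2 are the genes whose whole interval lies beyond the dotted 2-fold line.

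Genes around the pair on chromosome 19 did not share its ratio. The 3 nearest measurable genes on the side of Aldh1a1 were Anxa1, Trpm6 and D030056L22Rik. Annexin A1, Anxa1, 102 kb away, had 7302 counts in EVI1-WT against 4994 in EVI1+18, a 1.57-fold decrease (1.51 to 1.62). Trpm6, a magnesium channel gene 1600.2 kb away, had 187 and 3 counts, a 66.8-fold decrease (22.5 to 327), and D030056L22Rik was 1.18-fold higher (1.04 to 1.35). On the side of Aldh1a7, Zfand5 at 545 kb was 1.83-fold higher (1.73 to 1.93), the guanine deaminase Gda at 664 kb 1.74-fold higher (1.67 to 1.82), and 1110059E24Rik 1.12-fold lower with bounds on either side of equality (0.981 to 1.28). The other annotated genes within the span of the pair, C730002L08Rik and Gm6684, had 0 counts in both libraries.

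Of 21 genes that supply retinal or handle retinoic acid, 12 reached 1 scaled CPM. Of the 12, 3 were called higher and 1 lower, beside 5.05% and 5.10% of all 13183 genes. The median log2 ratio was -0.09. The retinol dehydrogenase Dhrs9 had 24 counts in EVI1-WT against 183 in EVI1+18, a 7.12-fold ratio (4.64 to 11.4). The plasma retinol carrier Rbp4 had 12 and 111 counts, an 8.63-fold ratio (4.75 to 17.2). The lipid carrier Fabp5, which can bring retinoic acid to the nucleus, was the most abundant of these per length in EVI1+18, at 50.2 scaled RPKM, and 2.27-fold higher (2.14 to 2.40). Rdh12 was 3.01-fold lower (2.26 to 4.04), Rdh10, a main retinol dehydrogenase, 1.61-fold lower (1.32 to 1.96) and Rdh11 1.34-fold lower (1.25 to 1.45). The retinoic acid hydroxylases Cyp26a1, Cyp26b1 and Cyp26c1 had at most 4 counts in either library, and the retinol receptor Stra6 and the esterifying enzyme Lrat had 0 in both.

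Of 13 nuclear receptors of retinoic acid and cofactors, 11 reached 1 scaled CPM, and 0 were called in either direction. Beside 5.05% called higher and 5.10% lower of all genes, nothing is read from that count of 0. The log2 ratio was below 0 for 9 of the 11, with a median of -0.30. No interval of these lay wholly past 2-fold, and 2 of the point ratios were past it. Rara, the main retinoic acid receptor of myeloid cells, had 1092 counts in EVI1-WT against 579 in EVI1+18, a 2.02-fold decrease (1.83 to 2.24). Its partner Rxra had 311 and 144 counts and was 2.31-fold lower (1.89 to 2.84). The coactivator Ncoa3 was 1.90-fold lower (1.77 to 2.04) and Ncoa2 1.87-fold higher (1.75 to 2.01), while Rxrb, the most abundant of the list per length, was 1.02-fold lower with bounds on either side of equality (0.953 to 1.09). Rarb had 1 and 0 counts.

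Known retinoic acid targets differed in both directions. Of 10 listed targets, 4 reached 1 scaled CPM. Of the 4, 1 was called higher and 2 lower, beside 5.05% and 5.10% of all 13183 genes. Transglutaminase 2, Tgm2, had 4889 counts in EVI1-WT against 514 in EVI1+18, a 10.2-fold decrease (9.30 to 11.2). The granulocyte factor Cebpe had 1259 and 335 counts and was 4.03-fold lower (3.57 to 4.56), beside neutrophil genes of which 6 of 10 were called lower. The retinal reductase Dhrs3 was 1.27-fold lower (1.18 to 1.37). Cd38 went the other way, with 2 and 27 counts, a 12.6-fold ratio (3.17 to 109).

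**Figure D5:**
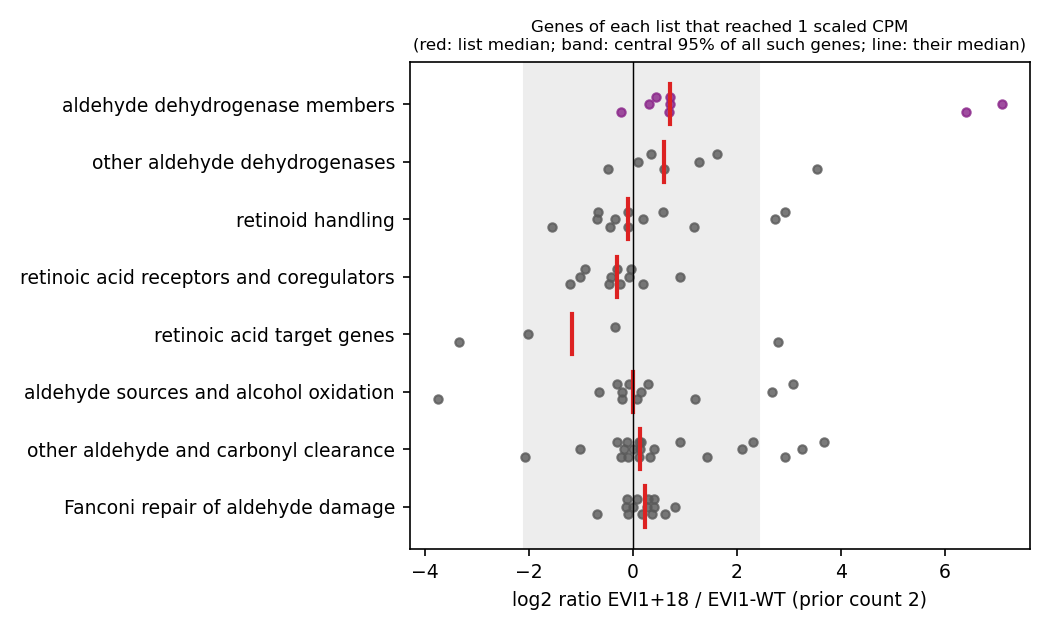
Log2 ratio of EVI1+18 over EVI1-WT (prior count 2) of each gene with at least 1 scaled CPM in 8 lists, with each list's median in red and the central 95% of all 13183 genes as a grey band (-2.09 to 2.43). Aldh1a1 and Aldh1a7 stand at 7.09 and 6.41, to the right of every other gene plotted.

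Of 16 enzymes that make aldehydes or oxidise alcohols, 12 were measurable. Of the 12, 2 were called higher and 1 lower, beside 5.05% and 5.10% of all 13183 genes. The median log2 ratio was 0.01. Spermine oxidase, Smox, which releases an aldehyde and hydrogen peroxide, had 493 counts in EVI1-WT against 3389 in EVI1+18, a 6.42-fold ratio (5.84 to 7.07). The alcohol and retinol dehydrogenase Adh7 had 5 and 61 counts, an 11.4-fold ratio (4.62 to 36.3), and the amine oxidase Aoc2 was 2.33-fold higher (1.78 to 3.09). Monoamine oxidase B, Maob, had 24 counts in EVI1-WT against 0 in EVI1+18, which is at least 8.57-fold lower against 3 counts in that library and at least 6.45-fold by the counting interval, and Maoa was 1.56-fold lower (1.35 to 1.82). Spermidine acetyltransferase, Sat1, was 1.15-fold lower (1.10 to 1.20). Adh5, which clears formaldehyde alongside Aldh2 in blood stem cells, had 1521 and 1737 counts and a ratio of 1.07 (0.994 to 1.14). It was named after its values were seen.

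Other enzymes that remove aldehydes and reactive carbonyls differed in both directions. Of 24 genes, 21 were measurable. Of the 21, 6 were called higher and 1 lower, beside 5.05% and 5.10% of all 13183 genes. Of those called higher, Akr1b8, Cbr3, Gsta1 and Gsta3 reached the minimum only through EVI1+18, so nothing is read from that share. The median log2 ratio was 0.13. The glutathione transferases Gsta3 and Gsta1 were 10.4-fold (6.55 to 17.3) and 35.5-fold higher (5.99 to 1437), the latter from 1 count in EVI1-WT and 38 in EVI1+18. The quinone reductase Nqo1 had 596 and 2766 counts and was 4.33-fold higher (3.96 to 4.74). Xanthine dehydrogenase, Xdh, had 2581 and 661 counts and was 4.18-fold lower (3.84 to 4.56), the aldo-keto reductase Akr1c13 was 2.02-fold lower (1.94 to 2.11) and Gstp1 1.24-fold lower (1.15 to 1.34). The aldehyde reductase Akr1a1, the most abundant of the list per length in EVI1+18 at 140 scaled RPKM, was 1.11-fold higher (1.08 to 1.15).

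Transcripts of cell type markers differed between the same libraries. The part of cell makeup in the Aldh1a1 and Aldh1a7 ratios was not tested. In bulk RNA, fewer cells of a type and less RNA per cell cannot be told apart. Of 15 erythroid markers, 13 were called higher in EVI1+18 and 0 lower, and their summed level was 1793 scaled CPM in EVI1-WT against 13725 in EVI1+18, with 0 of them at 0 counts. They included Aqp1, 301-fold higher (129 to 930), Car1, 60.9-fold (29.3 to 152), and Trim10, 47.7-fold (28.3 to 87.8). Of 11 measurable megakaryocyte and platelet markers, 8 were called higher and 0 lower, and the 13 listed summed to 981 and 2267 scaled CPM. Among them Pf4 was 70.2-fold higher (57.6 to 86.5), and Tubb1 had 0 counts in EVI1-WT. Stem and early progenitor markers, the cells in which aldehyde dehydrogenase activity is commonly assayed, had 6 of 10 measurable genes called higher and 1 lower. Slamf1 was 53.1-fold higher (28.7 to 111) and Meis1 30.6-fold (13.8 to 84.5), whereas Ly6a was 2.35-fold lower (2.09 to 2.65). The summed level of the 14 listed ran the other way, at 844 scaled CPM in EVI1-WT against 522 in EVI1+18, and most of it came from Gata2. Gata2, a factor shared with mast cells, had 15407 and 8078 counts and was 2.04-fold lower (1.99 to 2.10), and it was named after its values were seen. Hlf, Fgd5 and Hoxb5 were at 0 counts in both libraries.

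Markers of other cells differed in both directions. Of 10 measurable mast cell and basophil markers, 8 were called lower and 1 higher, and the 12 listed summed to 4879 scaled CPM in EVI1-WT against 454 in EVI1+18. Of 5 measurable eosinophil markers, 4 were called lower and 1 higher (854 and 172 scaled CPM summed over 7), and of 10 neutrophil markers 6 lower and 0 higher (3006 and 1044 over 11). Of 8 measurable monocyte and macrophage markers, 4 were called higher and 2 lower (1274 and 1826 over 12), and of 5 dendritic cell markers 3 higher and 0 lower (123 and 223 over 9). Of 10 lymphocyte markers, 2 were measurable and 0 called, and Cd8a, Cd4 and Ms4a1 were at 0 in both libraries. Nearly all of their summed 36.8 and 26.1 scaled CPM was Nkg7, a cytotoxic granule gene with 661 and 506 counts that was 1.40-fold lower (1.24 to 1.57) and was named after its values were seen. Of the stromal and endothelial markers, 2 of 10 were measurable and 1 was called lower.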

How the data were processed

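The authors deposited read counts per Ensembl gene, without normalization, for 1 library per vector. The tools named in the submitters' processing notes are HISAT2 2.2.1, featureCounts in Subread, SAMtools and edgeR, and the build is GRCm38. For the annotation release, strand setting and multiply mapping reads, settings are not stated in those notes as used here. Symbols, positions and exon lengths came from GENCODE M21 (GRCm38), which matched 55227 of 55487 IDs, and promoters from RefSeq (GRCm38.p6). Where a symbol had several IDs, its most abundant ID was taken.

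Counts were scaled with TMM in edgeR 4.0.16 (R 4.3.3). With 1 library per group no replicate-based test was possible and none was run. Each ratio has a 95% exact Clopper-Pearson counting interval (scipy 1.17.1), which compares these libraries and covers counting error only. PCR copies of a molecule can be counted as separate reads, so the intervals may be too narrow even for counting error. Log2 ratios used a prior count of 2. A count of 0 allows 3 counts, or 0.150 and 0.140 scaled CPM. Alternatives were DESeq2 1.42.0 size factors, library totals, other filters, a prior of 0.5, calls without intervals and transcript lengths.

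Members and the 19 gene lists were chosen with earlier results of these data known. Named genes are the members, other measurable aldehyde dehydrogenases, up to 3 genes a direction and the most abundant gene of each pathway list, up to 3 cell markers a list, and 3 neighbours a side; some that this takes are not given. Unmatched columns of the table numbered 0.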

Additional observations from a re-analysis of the deposited data

How the results depend on the processing

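With DESeq2 size factors or library totals in place of TMM, all 10 aldehyde dehydrogenase ratios kept their direction. The ratio of Aldh2 was 1.43 by library totals, outside its counting interval, and the other 9 stayed within theirs under both scalings. Aldh1a1 and Aldh1a7 were called higher, and 0 of the 10 genes lower, under every scaling, filter and calling rule tried. The median log2 ratio of the genes was 0.58 without a filter. The share of all genes called higher and lower was 3.20% and 3.25% without a filter, and 7.87% and 8.38% when the ratio alone had to pass 2-fold. By the longest transcript, ranks per length changed for Aldh1a1 and Aldh1a2 in EVI1-WT and for Aldh1a1, Aldh1a7, Aldh3a2, Aldh3b1 and Aldh9a1 in EVI1+18. By the ratio alone passing 2-fold, 3 of the other aldehyde dehydrogenases were higher in place of 1, 2 receptor genes lower in place of 0, 2 carbonyl-clearing genes lower in place of 1, 2 stem and progenitor markers lower in place of 1, and 1 neutrophil marker higher in place of 0. Without a filter, 1 gene of betaine, carnitine and lysine metabolism was called higher in place of 0. With a minimum of 5 scaled CPM, the retinoid handling median was 0.06, of the opposite sign, and Cd38, Adh7 and Maob were too low to count, which left 0 retinoic acid targets higher in place of 1, and 1 aldehyde-making gene higher and 0 lower in place of 2 and 1. The stromal marker called lower was also too low, leaving 0 in place of 1. The median log2 ratio of retinoic acid targets was -2.003 with that minimum and -0.35 without a filter, against -1.17. Ly6a was no longer called lower by library totals, leaving 0 stem and progenitor markers in place of 1. No library could be left out, since each group had 1. No paired analysis was possible because each group had 1 library. Depth limits the ratios of Aldh1a7, Aldh1a3 and Aldh1a2 most, which have the widest counting intervals of the 10.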

Other observations

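Aldh7a1 and Aldh9a1 act in betaine, carnitine and lysine metabolism. Of 9 listed genes of these pathways, 2 reached 1 scaled CPM, beside 13183 of all 55487 gene IDs. Nothing is read from that count. Choline dehydrogenase, Chdh, which makes betaine aldehyde, had 900 counts in EVI1-WT against 27 in EVI1+18, a 35.7-fold decrease (24.4 to 54.5). Tmlhe, which starts carnitine synthesis, was 1.53-fold lower (1.22 to 1.93). Bbox1, which completes that synthesis after Aldh9a1, and Aass, which starts lysine breakdown upstream of Aldh7a1, had 0 counts in both libraries.

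Fanconi genes, whose products repair the DNA crosslinks that aldehydes cause, were all measurable, with a median log2 ratio of 0.23. Of the 14, 0 were called in either direction. Beside 5.05% called higher and 5.10% lower of all genes, nothing is read from that count. Fance was 1.76-fold higher (1.53 to 2.02), Fancf 1.55-fold (1.20 to 2) and Slx4 1.34-fold (1.17 to 1.53), and Fancb was 1.61-fold lower (1.35 to 1.93).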
